A study of Mus musculus with 3 samples.

Results

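Neuronal identity and cytoskeleton genes were followed in cultured mouse sensory ganglia under 3 media. The group holds 32 listed genes in 7 roles: neuronal intermediate filaments, tubulins, microtubule-associated proteins, stathmins, neuronal RNA-binding proteins, transcription factors and other neuronal proteins. Members were found by gene symbol in the annotation of the array's probe sets, taking the brightest probe set where a gene has several. Of the 32 genes, 31 have a probe set with a single symbol, and each of these 31 has 1 such probe set, among 30142 genes named in all. The probe set that carries Elavl2 also carries the symbol of a microRNA gene, so no level of Elavl2 is given here.

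Primary dorsal root ganglion (DRG) neurons of 8 to 10 week old male ICR mice, an outbred strain, were kept for 72 hours in 1 of 3 media, with 1 array each. The first medium held 1 µg/ml recombinant SEMA3E (semaphorin 3E, which cells secrete to guide axons and vessels) and 1 µg/ml of an IgG that blocks SEMA3E. The second held 1 µg/ml recombinant SEMA3E alone, and the third was control medium. All 3 were based on DMEM with the B27 supplement. The labels do not say how many mice gave the cells or whether mice were pooled, and an array with the IgG but without SEMA3E is not among the samples.

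Neurons keep a long axon by a cytoskeleton of microtubules, built from alpha- and beta-tubulin, and of neurofilaments, built from light, medium and heavy subunits with alpha-internexin and, in peripheral neurons, peripherin. Microtubule-associated proteins hold the microtubules together, whereas stathmins bind free tubulin and let them shorten. Sensory neurons of the ganglia are specified by the transcription factors Isl1 and Pou4f1 and are recognised in tissue by Tubb3, Uchl1, Rbfox3 and the Elavl proteins. Semaphorins act on growing axons through their receptors, and loss of microtubules and actin at the growth cone is a known consequence of semaphorin signalling.

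Levels are intensities in arbitrary units, and differences are log2(intensity + 1) of one array minus that of the other. Because each medium has 1 array, no difference has an error or a test, and precision is limited by the number of arrays. Probes differ in how strongly they bind, so the levels of different genes are not set against each other. A gene was taken as above background at a mean of 43.7 units (5.48 on the log2 scale) or more, the 95th percentile of 492 vomeronasal receptor genes, and 17653 genes passed, all 31 members among them. The member means ran between 6.69 (Basp1) and 17.65 (Uchl1) on the log2 scale. The arrays were close to each other, with Pearson's r between 0.9996 and 0.9997 across the 17653 genes, which are not independent replicates, and with medians between 44.5 and 45.0 units over all 65956 probe sets. How identical values on several arrays arose is not stated, and they do not show equal amounts of RNA.

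**Figure D1:**
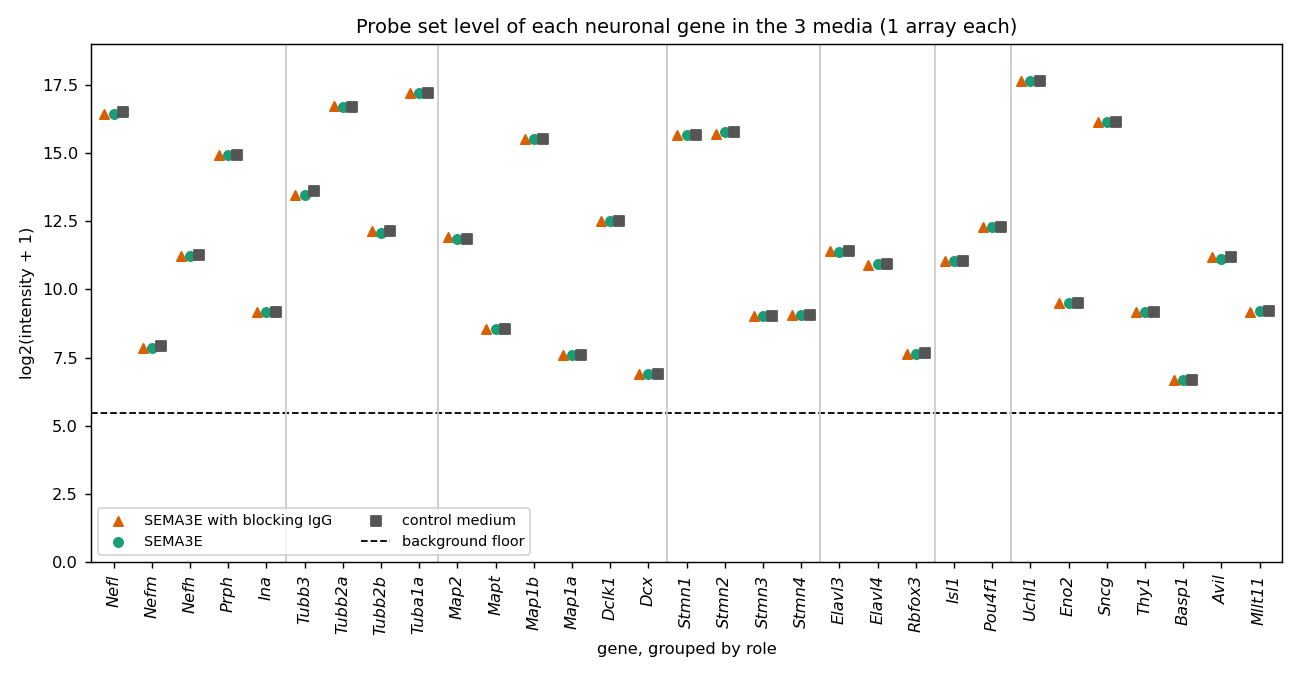
Level of each of the 31 measured genes in the 3 media, as log2(intensity + 1), with genes grouped by role along the horizontal axis, 1 marker per array and the background floor at 5.48 as a dashed line. All genes lie above the floor, and the 3 markers of a gene nearly coincide, with Tubb3 the member furthest apart.

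The labelled cell type was checked against its markers. Of 17 sensory neuron markers 16 were measured, 11 of them listed members. All 16 lay above the floor, among them Tubb3, Prph, Isl1, Pou4f1 and the sodium channel gene Scn10a, so the arrays hold RNA of sensory neurons. In a separate list of further sensory neuron transcription factors, which also holds the repressor gene Rest, 13 of 21 measured genes lay above it. Markers of other cells of the ganglion were above the floor as well: 10 of 10 measured satellite glial, 8 of 10 Schwann cell, 7 of 9 fibroblast, 6 of 10 macrophage, 6 of 7 endothelial and 8 of 8 mural markers, as were 7 of 7 proliferation genes. Of central nervous system markers 2 of 6 passed, Slc17a7 and Olig2, and of lymphocyte markers 2 of 5. Of all 30142 named genes 17653 passed the same floor, so a count near that share does not show that a cell type was present. Where a culture holds other cells too, a lower level of a neuronal RNA can come from fewer neurons or from less RNA per neuron. The arrays cannot tell them apart.

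Setting SEMA3E against control medium shows how these RNAs stood after exposure to the protein. Of the 31 genes 10 were lower with SEMA3E, 21 were identical and 0 were higher, and the median difference was 0. Over the 17653 genes 12.3% were lower and 6.21% higher, with a median of 0 too. The lower genes were Tubb3, Tubb2b, Avil, Nefl, Nefm, Rbfox3, Elavl3, Nefh, Tubb2a and Map2, and the differences ran between −0.16 and −0.0036. After median centring the 31 genes split into 8 lower and 23 higher, after loess into 9 and 22 and after quantile normalization into 18 and 11, because genes with identical values take the sign of the correction. Among the 10 genes that differ as deposited, 8, 7 and 8 were lower under these scalings. The genes that turned under at least 1 of them were Tubb2a, Map2 and Nefh, each with a deposited difference under 0.01 in size.

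Few of these differences were of any size. Below, a gene is called 5% or 10% apart where the brighter array exceeds the dimmer by at least that much. At least 5% lower were 3 of the 31 genes, Tubb3, Tubb2b and Avil, against 4.91% of all genes, and 0 were that much higher, against 3.02%. At least 10% lower was 1 gene, Tubb3, against 2.36% of all genes, and 0 were higher, against 1.38%. Tubb3 no longer reached 10% after loess and quantile normalization (0 genes each). The count at 5% came to 2 genes after median centring, 1 after loess and 2 after quantile normalization. Avil was at least 5% lower under none of these scalings. Lower values were more frequent among bright genes in general. Among genes with a mean between 10 and 14 on the log2 scale 23.7% were lower with SEMA3E, and 6 of the 10 members in that range were. Among genes at 14 or more 37.6% were lower, against 2 of the 9 members, and among dimmer genes 7.99% were, against 2 of the 12 members. Higher values were found for 0 members in each class, against 6.24%, 5.72% and 7.73% of all genes in order of rising brightness.

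The IgG array was next set against that of SEMA3E alone. Their media differ in the antibody only, but each medium is 1 culture on 1 array, so culture and array differ as well. Of the 31 genes 6 were higher with the IgG, 4 were lower and 21 were identical, and the median difference was 0, as over all genes. Over all genes 10.2% were higher and 10.3% lower. The higher genes were Map2, Tubb2b, Avil, Tubb2a, Elavl3 and Nefl, and the lower ones Stmn2, Mllt11, Ina and Elavl4. At least 5% higher were Map2, Tubb2b and Avil (3 of 31, against 4.77% of all genes), and at least 5% lower was Stmn2 (1 of 31, against 4.67%). At 10% 0 genes differed, against 2.67% of all genes higher and 2.08% lower. After loess 2 genes were at least 5% higher, Avil no longer among them. After quantile normalization 2 genes, Stmn2 and Uchl1, were at least 5% lower and 1, Stmn2, at least 10% lower. After loess the 31 genes split into 10 higher and 21 lower and after quantile normalization into 7 and 24, and the deposited split of 6 and 4 among the genes that differ came to 5 and 5 and to 4 and 6. In order of rising brightness, 0 of 12, 4 of 10 and 2 of 9 members were higher, against 6.85%, 17.9% and 32.6% of all genes, and 2 of 12, 1 of 10 and 1 of 9 were lower, against 8.06%, 17.3% and 19.6%.

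Against control, the medium of the IgG array differs in both added proteins, and culture and array differ here too. Of the 31 genes 9 were lower, 2 higher and 20 identical, against 11.4% of all genes lower and 7.59% higher, with a median of 0 in both. The lower genes were Tubb3, Stmn2, Nefm, Nefl, Mllt11, Rbfox3, Ina, Elavl4 and Nefh, and the higher ones Map2 and Tubb2a. At least 5% lower were Tubb3 and Stmn2 (2 of 31, against 5.05% of all genes), and 1 gene, Map2, was that much higher, against 3.75%. At 10% 1 gene was lower, Tubb3, against 2.45% of all genes, and 0 were higher, against 2.11%. The genes at least 5% lower numbered 1 after centring, 1 after loess and 4 after quantile normalization (Tubb3, Stmn2, Nefl and Uchl1). The split was 9 lower and 22 higher after median centring, 10 and 21 after loess, and 27 and 3 after quantile normalization. Among the 11 genes that differ as deposited, 9, 8 and 10 were lower under these scalings. In order of rising brightness, 4 of 12, 3 of 10 and 2 of 9 members were lower, against 7.69%, 22.4% and 27.5% of all genes, and 0 of 12, 1 of 10 and 1 of 9 were higher, against 5.92%, 11% and 21.1%. Each pair of these comparisons shares an array, so their counts do not bear on each other independently.

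**Figure D2:**
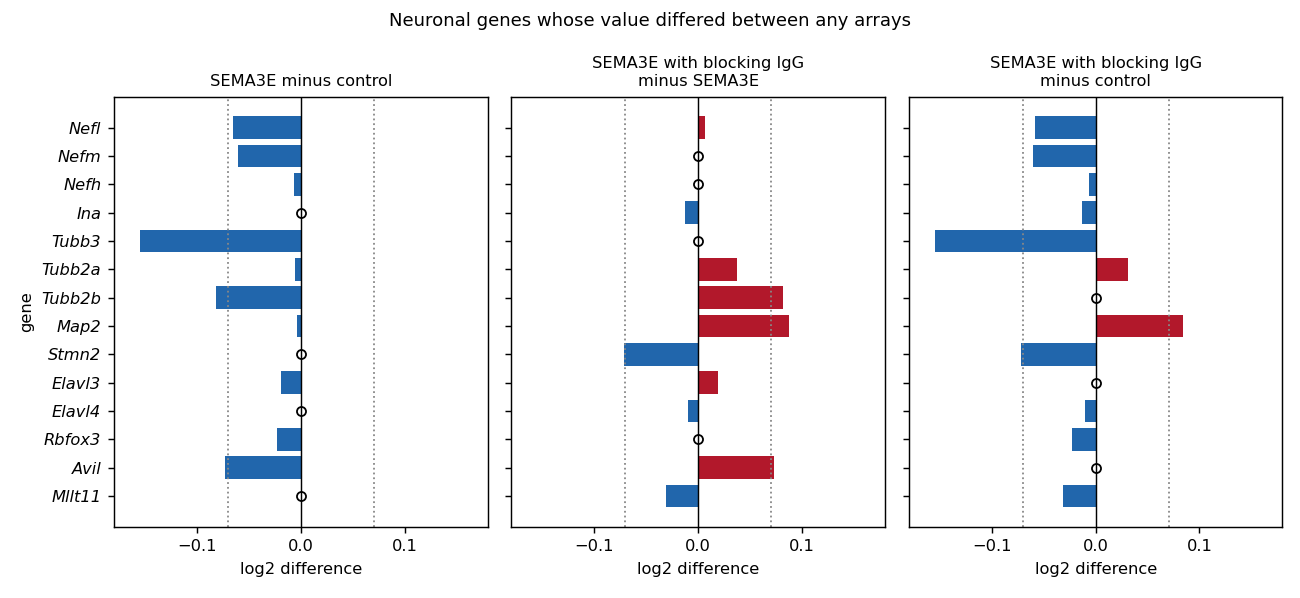
Log2 difference of each of the 14 genes whose value differed between any arrays, with 1 panel per comparison, blue bars for lower, red bars for higher and open circles for identical values. Dotted lines mark a difference of 5%. Tubb3 stands at −0.16 in both comparisons with control, and Map2 at 0.09 and 0.08 in the comparisons with the IgG array on top.

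The 5′ flanks of 4 members are shown because their genes behave differently on these arrays: Tubb3 lay lower in both SEMA3E media, Avil lay lower with SEMA3E alone, Map2 lay higher with the IgG, and Prph held 1 value throughout. Each run is the 250 bases before the transcript start on the plus strand, from RefSeq on GRCm38.p6: chr8:123411303-123411552 for Tubb3, chr10:127000459-127000708 for Avil, chr1:66175079-66175328 for Map2 and chr15:99054924-99055173 for Prph. Capitals mark matches on either strand to any of 5 motifs. The GC box, searched as GGGCGG, is bound by factors of the Sp family. The CCAAT box was searched by the letters of its name, and the TATA box, which places the transcript start, as TATAAA. The RE1 element is bound by the repressor REST at neuronal genes, and its left part was searched as CAGCACC. Its right part was searched separately, with the letters GGACAGC.
Tubb3: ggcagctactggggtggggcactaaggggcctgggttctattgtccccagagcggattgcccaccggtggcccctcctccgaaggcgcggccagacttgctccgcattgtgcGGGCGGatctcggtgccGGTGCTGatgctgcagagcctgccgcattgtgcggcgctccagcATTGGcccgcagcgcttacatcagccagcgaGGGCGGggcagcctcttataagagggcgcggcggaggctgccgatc
Avil: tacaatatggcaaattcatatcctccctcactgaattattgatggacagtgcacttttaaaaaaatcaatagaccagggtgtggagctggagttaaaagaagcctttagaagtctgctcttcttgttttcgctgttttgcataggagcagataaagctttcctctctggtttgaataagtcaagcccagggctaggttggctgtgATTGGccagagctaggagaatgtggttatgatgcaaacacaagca
Map2: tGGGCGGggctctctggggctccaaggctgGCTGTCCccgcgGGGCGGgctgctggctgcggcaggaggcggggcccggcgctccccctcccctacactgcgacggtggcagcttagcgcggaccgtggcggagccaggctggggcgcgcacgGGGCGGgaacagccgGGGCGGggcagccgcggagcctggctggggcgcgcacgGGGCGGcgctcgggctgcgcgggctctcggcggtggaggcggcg
Prph: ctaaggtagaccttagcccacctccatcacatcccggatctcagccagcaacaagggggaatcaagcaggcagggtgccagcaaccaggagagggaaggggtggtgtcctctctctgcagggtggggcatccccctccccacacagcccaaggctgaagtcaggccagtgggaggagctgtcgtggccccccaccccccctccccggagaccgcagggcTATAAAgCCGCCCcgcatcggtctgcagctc

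The Tubb3 flank held GC boxes that start 138 and 46 bases before the transcript start, a CCAAT box on the opposite strand at 77 bases and a left RE1 part on the opposite strand at 121 bases. The Map2 flank held 5 GC boxes and a right RE1 part on the opposite strand, and its bases were 81.2% G or C. The Avil flank, with 42.0% G or C, held a single CCAAT box on the opposite strand at 45 bases. The Prph flank held a TATA box at 31 bases and a GC box on the opposite strand at 24 bases. The motifs overlapped at no position in these 4 flanks. Of 32851 RefSeq promoters of this length 32.7% held a GC box, 33.8% a CCAAT box, 12.4% a TATA box, 5.73% the left RE1 part and 5.28% the right one. Of the 32 listed genes 23 have an entry, Elavl2 included, with 14, 11, 6, 2 and 1 of them holding these motifs in at least 1 entry. Some genes have several entries, which raises their chance of a match. Counted by entry, as the shares above are, 18, 17, 7, 2 and 1 of the 33 entries of these genes held the motifs. The median G or C share was 62.6% over the 23 genes and 52.4% over all 32851 promoters. The left part was found at Tubb2a and Tubb3 and the right part at Map2. Rest itself read 188 units on all 3 arrays. A match to these letters is a description and not evidence of binding.

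Of the 4 tubulins 3 were lower with SEMA3E than in control medium as deposited, Tubb2a among them not after the other scalings. Over all genes above the floor 12.3% were lower. In the brightness ranges of these tubulins it was 23.7% (10 to 14 on the log2 scale) and 37.6% (14 or more). Tubb3, the beta-tubulin of neurons (probe set TC0800001522.mm.1), had 11305 units with SEMA3E and blocking IgG and the same 11305 with SEMA3E alone, against 12589 units in control medium. Both SEMA3E media thus lay 0.16 below control on the log2 scale (−10.2%), and between −0.15 and −0.14 under the 3 other scalings and the larger pseudocount. Of all genes 2.02% were at least as far below control with SEMA3E and 2.11% with SEMA3E and IgG.

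Tubb2b, a beta-tubulin of developing neurons, had 4547 units with SEMA3E and IgG, 4297 with SEMA3E alone and 4547 in control medium. The array with SEMA3E alone was the low one, at −0.08 from control, while the IgG array held the control value exactly. Tubb2a, its close relative and its neighbour on chromosome 13, had 107211 units with SEMA3E and IgG, 104490 with SEMA3E alone and 104919 in control medium. Its difference of −0.0059 between SEMA3E and control turned to 0.00028 after median centring, 0.015 after loess and 0.0021 after quantile normalization, and its 0.03 above control with the IgG turned to −0.0060 after quantile normalization. Tuba1a, the main alpha-tubulin of young neurons, read 152454 units on all 3 arrays. Tubulin genes are alike in sequence, so their probes may read each other's RNA.

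Among the neuronal intermediate filaments the neurofilament subunits lay slightly lower in both SEMA3E media as deposited. Both media are set against the same control array. Nefl, the light subunit, had 88969 units with SEMA3E and IgG, 88569 with SEMA3E alone and 92650.4 in control medium. Its differences from control were −0.06 with the IgG and −0.06 without it (−3.97% and −4.41%), and 5.18% of all genes were at least as far below control with SEMA3E. Nefl was 0.0065 higher with the IgG than without, which became −0.0058 after loess and −0.04 after quantile normalization.

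Nefm, the medium subunit and the protein-coding neighbour of Nefl on chromosome 14, had 230.05 units in both SEMA3E media and 239.9 in control medium (−0.06, or −4.11%). Nefh, the heavy subunit, had 2414 units in both SEMA3E media and 2425 in control medium, a difference of −0.0063 that turned to 0.0067 after loess with SEMA3E and 0.0038 with SEMA3E and IgG. Ina, which encodes alpha-internexin, had 575 units with SEMA3E and IgG, 580.0 with SEMA3E alone and 580.0 in control medium (−0.013 for the IgG array against either). Prph, encoding peripherin, which sensory neurons raise after axon injury, read 30831 units on all 3 arrays. The 3 neurofilament subunits were thus below control in both SEMA3E media as deposited, Nefh not after loess, and each by less than 5%. Over all genes above the floor 12.3% were lower with SEMA3E and 11.4% with SEMA3E and IgG. Among genes at 14 or more on the log2 scale, as Nefl is, it was 37.6% and 27.5%. After quantile normalization the difference of Nefl between the IgG array and control was −0.10, past 5%.

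Of 6 microtubule-associated proteins 5 held 1 value on all 3 arrays, as did 74.9% of all genes above the floor, and 1 differed. Map2, which binds microtubules of cell bodies and dendrites, had 3912 units with SEMA3E and IgG, 3681 with SEMA3E alone and 3690.2 in control medium. The IgG array was the high one, 0.09 above SEMA3E alone (6.27%) and 0.08 above control (6.01%), and 3.38% of all genes were at least as far above control. The difference between SEMA3E and control of −0.0036 turned to 0.0026 after median centring, 0.011 after loess and 0.0022 after quantile normalization.

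Map1b, a protein of growing axons, read 47318 units on all 3 arrays. Mapt, which encodes the axonal protein tau, read 376 units throughout, and Map1a, the relative of Map1b in mature neurons, 194 units. Dclk1 and Dcx, doublecortin family proteins of migrating and growing neurons, read 5763 and 117 units on each array.

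Stathmins were identical with SEMA3E and in control medium in all 4 cases, as were 81.4% of all genes above the floor. Stmn2, also called SCG10, a stathmin of growth cones, had 53164 units with SEMA3E and IgG, against 55876 with SEMA3E alone and 55876 in control medium. The IgG array was the low one, at −0.07 (−4.85%), and 4.96% of all genes were at least as far below control there. After quantile normalization the difference from SEMA3E alone was −0.14. Stmn1, the stathmin of most dividing and neuronal cells, read 51502 units, Stmn3 519 units and Stmn4 539 units on each array.

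The neuronal RNA-binding proteins differed by little. Elavl3, which stabilises messages of neurons, had 2714 units with SEMA3E and IgG, 2678 with SEMA3E alone and 2714 in control medium, so the array with SEMA3E alone was the low one (−0.019). Elavl4, or HuD, had 1926 units with SEMA3E and IgG, 1939 with SEMA3E alone and 1939 in control medium (−0.010). Rbfox3, the splicing factor known as NeuN, had 199 units in both SEMA3E media and 202 in control medium (−0.023). The patterns of these 3 genes across the arrays were all different. Their relatives outside the group, Elavl1, Rbfox1 and Rbfox2, read 640.1, 2454 and 2017 units on every array.

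The transcription factors that specify sensory neurons held 1 value throughout, as did 74.9% of all genes above the floor. Isl1, a LIM homeodomain factor, read 2089 units on all 3 arrays. Pou4f1, the POU factor also called Brn3a, read 4962 units.

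Of 7 other neuronal proteins 5 held 1 value on all 3 arrays, against 74.9% of all genes, and 2 differed. Avil, encoding advillin, an actin-binding protein of sensory neurons, had 2326 units with SEMA3E and IgG, 2212 with SEMA3E alone and 2326 in control medium. SEMA3E alone was the low array, at −0.07 (−4.92%), and 4.82% of all genes were at least as far below control. After median centring, loess and quantile normalization the difference from control was −0.067, −0.060 and −0.060, short of 5% each time. Mllt11, a small protein of neurons whose function is little known, had 581 units with SEMA3E and IgG, 594 with SEMA3E alone and 594 in control medium (−0.03 for the IgG array).

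The other 5 were identical across the arrays as deposited. Uchl1, the abundant ubiquitin hydrolase of neurons also called PGP9.5, read 205992 units, and Sncg, gamma-synuclein of sensory neurons, 71611 units. After quantile normalization Uchl1 in the IgG array came to −0.096 from SEMA3E alone and −0.086 from control, past 5% in both. Eno2, the neuron-specific enolase, read 718 units, the surface protein gene Thy1 569 units and Basp1, a growth cone membrane protein gene, 102 units.

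By pattern, 17 of the 31 genes (54.8%) held 1 value on all 3 arrays, against 74.9% of all genes above the floor. The array with SEMA3E and IgG alone stood apart for 4 genes (12.9%, against 6.56% of all genes): Ina, Stmn2, Elavl4 and Mllt11. Control stood apart from 2 identical SEMA3E media for 4 genes (12.9%, against 4.63%): Nefm, Nefh, Tubb3 and Rbfox3. The array with SEMA3E alone stood apart for 3 genes (9.68%, against 6.14%): Tubb2b, Elavl3 and Avil. The values of Nefl, Tubb2a and Map2 differed on all 3 arrays (9.68%, against 7.79%).

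**Figure D3:**
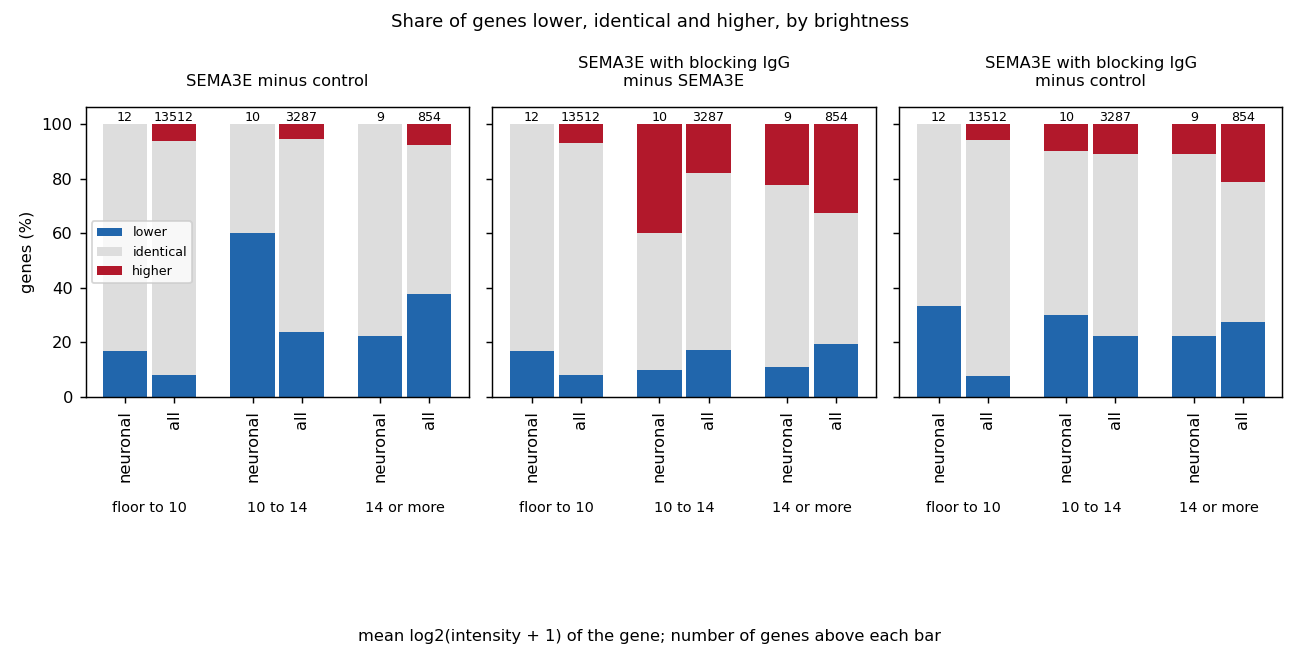
Share of genes lower (blue), identical (grey) and higher (red) in each comparison, for the 31 neuronal genes and for all genes above the floor, in 3 classes of mean log2 intensity (floor to 10, 10 to 14, 14 or more) with the number of genes above each bar. With SEMA3E against control, 6 of the 10 neuronal genes between 10 and 14 were lower, against 23.7% of all genes, while above 14 it was 2 of 9 against 37.6%.

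Other genes of the neuronal cytoskeleton came from lists chosen with earlier results of these data known. Beside each list stand the shares over all genes above the floor, 12.3% lower with SEMA3E than in control medium and 6.21% higher. With the IgG 10.3% were lower and 10.2% higher than with SEMA3E alone, and 11.4% lower and 7.59% higher than in control medium. Of 11 other tubulins above the floor 5 were lower with SEMA3E than in control medium, 6 identical and 0 higher, with a median of 0. Tubg1, a gamma-tubulin of microtubule nucleation, lay furthest, with 3425 units with SEMA3E and IgG, 3181 with SEMA3E alone and 3425 in control medium (−0.11 for SEMA3E). Tubb4b (−0.08), Tubg2 (−0.03) and Tubb6 (−0.03) were lower as well, as was Tuba1c (−0.014), which turned higher after loess and quantile normalization. With the IgG 4 of the 11 were higher than with SEMA3E alone, Tubg1 by 0.11, Tubb4b by 0.08, Tubb6 by 0.07 and Tuba1c by 0.014, the last again lower after loess and quantile normalization. Tubb5, a beta-tubulin of most cells, read 24801 units on all 3 arrays, and Tuba4a, Tuba8, Tubb4a, Tubd1 and Tube1 were identical too. Against control the IgG array was lower for Tubg2 (−0.03) and higher for Tubb6 (0.04).

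Of 34 microtubule regulators 6 were lower with SEMA3E than in control, 28 identical and 0 higher, with Clasp1 turning higher after loess and Gsk3b after loess and quantile normalization. Camsap3, which binds the minus ends of microtubules, had 478 units in both SEMA3E media and 541 in control medium (−0.18). Map7d2 (−0.08), the kinase gene Mark4 (−0.03) and Cdk5 (−0.02) followed. With the IgG 3 were higher than with SEMA3E alone and 2 lower, led by Cdk5, a kinase of neuronal cytoskeletal proteins, with 38372 units with SEMA3E and IgG, 42705 with SEMA3E alone and 43309 in control medium (−0.15 against SEMA3E alone). Clasp1 was 0.06 higher, Mark4 0.03 higher and Gsk3b 0.011 higher, the last lower after quantile normalization. Against control the IgG array had 4 lower and 1 higher, among them Camsap3 (−0.18), Cdk5 (−0.17), Map7d2 (−0.08) and Clasp1 (0.04), and Spast turned higher after centring and loess. Of 19 tubulin folding and modifying genes 5 were lower with SEMA3E and 0 higher, led by the tubulin ligase family genes Ttll12 (−0.06), Ttll7 (−0.04) and Ttll1 (−0.03) and the tubulin cofactor gene Tbca (−0.04), while Tbcb (−0.0052) was higher after centring, loess and quantile normalization. With the IgG 3 were lower than with SEMA3E alone and 2 higher (Tbcb −0.10, Ttll12 0.06, Ttll7 0.04, Svbp −0.03), and 4 were lower than control and 0 higher (Tbcb −0.11, Tbca −0.04, Ttll1 −0.03, Svbp −0.03).

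Of 13 genes in a list of other intermediate filaments, linkers and the axon degeneration enzymes Sarm1 and Nmnat2, both identical, 2 were lower with SEMA3E and 1 higher, Dst, a linker of filaments and microtubules, at −0.12, Synm at −0.0066 (higher after loess and quantile normalization) and Nes at 0.014. Nes, which encodes nestin, a filament of progenitor and reactive cells, had 818 units with SEMA3E and IgG, 671 with SEMA3E alone and 664 in control medium. The IgG array was 0.29 above SEMA3E alone and 0.30 above control, a larger difference than that of any of the 31 members. With the IgG 3 of the 13 were higher than with SEMA3E alone and 0 lower (Nes, Dst 0.16, Des 0.03), and against control 3 were higher and 1 lower (Dst 0.05, Des 0.03, Synm −0.0066). Vim, the filament of non-neuronal cells, read 38763 units on every array and Gfap, the filament of reactive glia, 67.4 units.

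Of 18 genes of the axonal membrane skeleton and adhesion 7 were lower with SEMA3E and 0 higher. L1cam, an adhesion molecule of axons, had 5753 units with SEMA3E and IgG, 5070.1 with SEMA3E alone and 5625 in control medium, so that SEMA3E alone was the low array (−0.15). Marcksl1 (−0.17), Add2, an adducin of the membrane skeleton (−0.06), and Chl1 (−0.02) were lower as well, and Gap43, the growth-associated protein, differed by −0.0024 and Add3 by −0.0046, both higher after centring, loess and quantile normalization. With the IgG 5 of the 18 were higher than with SEMA3E alone and 0 lower, Marcksl1 by 0.19, L1cam by 0.18, Add2 by 0.06 and Chl1 by 0.02, while Ank3 turned lower after quantile normalization. Against control 2 were higher (L1cam 0.03, Marcksl1 0.02) and 2 lower, Add3 at −0.0046 and Gap43 at −0.0024, both higher after centring and Gap43 also after loess.

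In the lists of RNA-binding proteins and transcription factors most genes were identical with SEMA3E and in control medium, as were 81.4% of all genes above the floor. Of 17 RNA-binding and splicing genes 3 were higher with SEMA3E and 0 lower (Mbnl1 0.04, Nova1 0.011, Khdrbs3 0.00022). With the IgG 1 was higher than with SEMA3E alone and 2 lower (Srrm4 0.0075, Nova1 −0.011, Khdrbs3 −0.00022), and 2 were higher than control and 0 lower (Mbnl1 0.04, Srrm4 0.0075). The list of further sensory neuron transcription factors, which also holds the repressor gene Rest, had 13 of 21 measured genes above the floor. Of these 13 Sox4 alone differed, with 3878 units with SEMA3E and IgG, 3964 with SEMA3E alone and 3784 in control medium (0.07 for SEMA3E against control, −0.03 for the IgG against SEMA3E alone, 0.04 against control). Among relatives of other members, Sncb, beta-synuclein, read 91.1 units on every array, and Eno1 is not analysed here. Of 8 such relatives 2 were lower with SEMA3E and 0 higher (Ly6e −0.10, Uchl5 −0.05). With the IgG 1 was lower than with SEMA3E alone (Uchl3, −0.10) and 3 were lower than control (Uchl3 −0.10, Ly6e −0.10, Uchl5 −0.05), with 0 higher in either. Of 12 commonly used reference genes 2 were lower with SEMA3E and 1 higher (Actb −0.06, Polr2a −0.04, Pgk1 0.08), so differences of the size found for most members occurred among these as well. With the IgG 2 were higher than with SEMA3E alone and 2 lower (Actb 0.15, Hprt −0.09, Pgk1 −0.08, Polr2a 0.05), and 2 were higher than control and 1 lower (Actb 0.09, Hprt −0.09, Polr2a 0.0069, the last lower after quantile normalization).

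Levels of other cells' markers are given beside these values. The 16 sensory neuron markers, 11 of them listed members, summed to 390183 units with SEMA3E and IgG, 389168 with SEMA3E alone and 396100 in control medium, or 98.5% and 98.2% of control. Uchl1 alone gave 205992 of these units on each array, so the sum follows the brightest probe sets. In the IgG array 8 of 16 were lower and 0 higher, against 11.4% and 7.59% of all genes. With SEMA3E alone 9 of 16 were lower and 0 higher, against 12.3% and 6.21%. Among all genes with a mean between 10 and 14 on the log2 scale 23.7% were lower with SEMA3E alone, and at 14 or more 37.6%. The satellite glial markers summed to 96.2% of control with the IgG and 99.0% with SEMA3E alone, with 1 and 2 of 10 higher (Bcan 0.0098 in both, Fabp7 0.13 with SEMA3E alone) and 3 of 10 lower in each, Kcnj10 (−0.54 and −0.24), Fbln5 (−0.30 and −0.28) and Atp1b2 (−0.26 in both). The Schwann cell markers summed to 98.7% and 99.2%, with Pmp2 the 1 of 8 that differed (−0.57 and −0.31). Most of that sum was Pmp22, which read 130696 units on all 3 arrays. Endothelial markers stood at 98.4% in both and fibroblast markers at 99.6% and 100.6%, with Ogn at −0.83 and −0.57 and Mgp at 0.25 in both. Macrophage markers stood at 104.3% and 106.3%, with Lyz2 the 1 of 6 that was higher (0.11 and 0.19), 2 lower in the IgG array (Adgre1 −0.04, C1qa −0.04) and 1 lower with SEMA3E alone (Cd68 −0.08). Mural markers at 105.99% and 106.04%, with Tagln at 0.22 and 0.23, Des at 0.03 in the IgG array and the other markers identical. Proliferation genes stood at 104.5% and 102.7% of control, with 2 of 7 higher and 0 lower in the IgG array (Pcna 0.08, Mki67 0.06) and 1 of 7 higher (Pcna 0.10) and 1 lower (Plk1 −0.11) with SEMA3E alone. Lymphocyte and central nervous system markers held the control sums exactly. No marker was at 0. The part of these shifts in the differences of the neuronal genes was not tested.

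**Figure D4:**
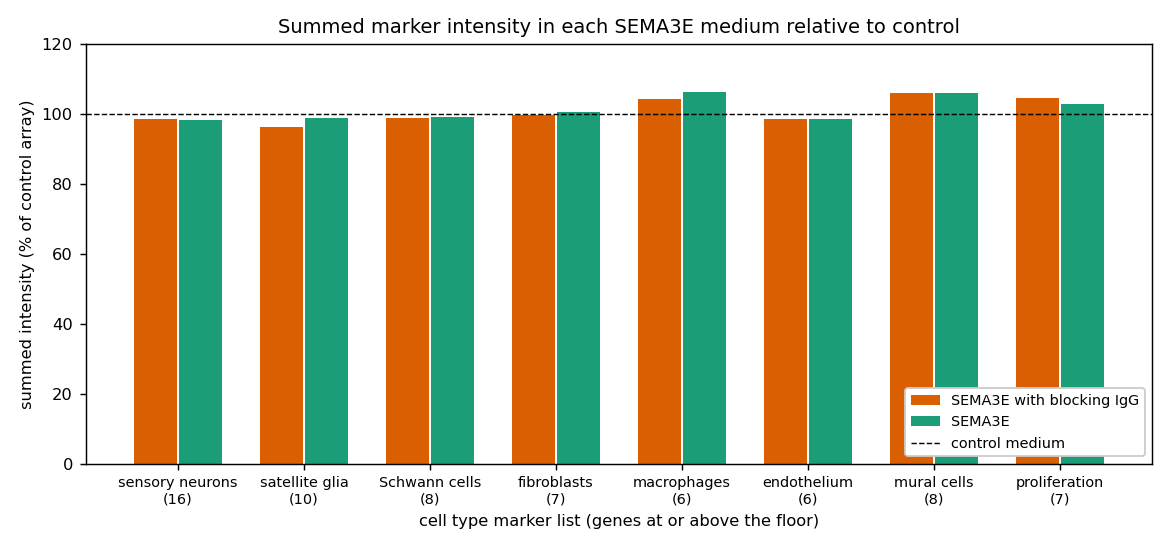
Summed intensity of the markers of each cell type above the floor, as a percentage of the control array (dashed line at 100), for SEMA3E with blocking IgG (orange) and SEMA3E alone (green), with the number of genes under each name. Sensory neuron markers lie at 98.5% and 98.2%, satellite glial markers at 96.2% and 99.0%, and mural markers at 105.99% and 106.04%. Each sum follows the brightest genes of its list, such as Uchl1 for sensory neurons and Pmp22 for Schwann cells.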

How the data were processed

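RNA of 3 cultures was measured on 1 array each. The deposited values are intensities, and the submitters' processing notes name Affymetrix Expression Console as the tool the authors used. Its version, the summarisation, the normalization and the build are not given here by any source. The RNA was extracted with TRIzol and labelled with a WT Pico kit, per the labels' protocols.

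From these, log2(intensity + 1) was computed. Genes were named from single-symbol probe sets (30604 of 65956, 2146 with several symbols and 33206 with none), with 827 symbols updated through the RefSeq table of GRCm38.p6. All members were named, and of each related list up to 4 genes furthest apart per comparison, with close relatives of members. The members, lists and thresholds were chosen with earlier results of these data known. With 1 array per medium no test was made. Alternatives were median centring, loess (span 0.4), quantile normalization, a pseudocount of 16, the mean of all probe sets and a floor on members. The counting was tested on simulated data. Python 3.11.15, numpy 2.4.6, pandas 2.3.3, statsmodels 0.14.6 and matplotlib 3.10.9 were used.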

Additional observations from a re-analysis of the deposited data

How the results depend on the processing

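No paired analysis was possible because each medium has 1 array. Leaving out a replicate was not possible for the same reason. The pseudocount of 16 changed no count of the 31 genes. The mean of all probe sets and the floor on members changed nothing, since each member has a single probe set and all 31 lie above the floor. Under median centring, loess and quantile normalization genes with identical values take the sign of the correction, so counts of higher and lower move most. With SEMA3E against control, the genes higher numbered 23 after centring, 22 after loess and 11 after quantile normalization (0 as deposited), and the genes lower 18 after quantile normalization (10 as deposited). With the IgG against SEMA3E alone, the genes lower numbered 21 after loess and 24 after quantile normalization (4 as deposited) and the genes higher 10 after loess (6 as deposited). With the IgG against control, the genes higher numbered 22 after centring and 21 after loess (2 as deposited), and the genes lower 27 after quantile normalization (9 as deposited).

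Counts past a fold moved by few genes. At 5% lower, SEMA3E against control had 2 genes after centring, 1 after loess and 2 after quantile normalization (3 as deposited). The IgG against SEMA3E alone had 2 after quantile normalization (1 as deposited). The IgG against control had 1 after centring, 1 after loess and 4 after quantile normalization (2 as deposited). At 5% higher, the IgG against SEMA3E alone had 2 after loess (3 as deposited). At 10% lower, SEMA3E against control had 0 after loess and 0 after quantile normalization (1 as deposited), where Tubb3 no longer reached it, and the IgG against SEMA3E alone had 1 after quantile normalization (0 as deposited). Of the 93 single differences, 8 moved by more than 0.02 after loess and 20 after quantile normalization, and 0 after centring or the larger pseudocount. No member difference of at least 5% turned its direction under these 3 scalings or the larger pseudocount. How far signal over background limits single members was not tested.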
